A study of Homo sapiens with 4 samples.

Results

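After sonodynamic therapy (SDT), 20 of 54 cell cycle genes were in the list of differentially expressed mRNAs of HepG2 cells and 19 of 54 in that of Huh7 cells, and 13 genes were in both lists. The 54 genes are cyclins, cyclin-dependent kinases (CDKs), CDK inhibitors, E2F and RB family factors, replication origin factors, and mitotic and checkpoint kinases, out of 22148 background genes of the deposited tables. They were chosen by name, with earlier results of these data known. A gene counted as listed when its Ensembl identifier stood under any gene ontology (GO) term of the table for its comparison. All 54 were matched to 1 identifier each.

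Both HepG2 and Huh7 are lines long kept in culture from human liver tumours. In SDT, low-frequency ultrasound activates a sensitizer in cells, and here nanobubbles carried the sensitizer hematoporphyrin monomethyl ether (HMME) together with lonidamine (LND), an inhibitor of energy metabolism. Group A was HepG2 cells before treatment and group B HepG2 cells after it, while group C was Huh7 cells before treatment and group D Huh7 cells after it, with 1 library of total RNA depleted of ribosomal RNA per group. For each line the authors compared the treated with the untreated cells, B against A and D against C. The labels give no treatment to groups A and C, so the sensitizer, LND, the bubbles and the ultrasound cannot be told apart. The time between treatment and RNA isolation is not given in the labels.

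The tables used here hold genes called at an adjusted p-value under 0.05, arranged under GO terms and KEGG pathways, so they cover only called genes that carry such an annotation and not the whole of the authors' lists. They hold no expression level, no fold change and no direction, so the data say that a gene was listed and not whether it was higher or lower after treatment. There are no replicates and the tables do not hold the depth of each library, so no listing has a replicate error and a gene that was not listed may have been unchanged, too low to be tested, or different by less than the depth could show. The labelled cell types could not be checked against marker levels. In bulk RNA, fewer cells in a phase of the cycle and less RNA of a gene per cell cannot be told apart.

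The cell cycle is driven by CDKs, kinases that act only when bound to a cyclin whose amount comes and goes with the phase. In G1, D cyclins with CDK4 or CDK6 and E cyclins with CDK2 phosphorylate RB and its relatives, which releases the E2F transcription factors that drive genes of DNA replication. A cyclins work in S phase, B cyclins with CDK1 bring the cell into mitosis, and the INK4 and CIP/KIP inhibitors bind the kinases or their cyclin complexes and hold the cycle back.

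The share of members listed was 37% in HepG2 cells, against 21.6% of all background genes (4783 of 22148). In Huh7 cells it was 35.2%, against 19.7% of all background genes (4369 of 22148). Both shares of members lay above those of all genes, and this difference has no test, because genes of a single pair of libraries are not replicates. The background genes are those of the GO tables, which do not say which of them were expressed in these lines. A gene without expression cannot be listed, and the part of expression in the difference was not tested. The 13 members in both lists were 65% of the HepG2 members and 68.4% of the Huh7 members. Over all listed genes with a GO term, 2281 were in both lists, 47.7% of the HepG2 list and 52.2% of the Huh7 list. A further 7 members were listed in HepG2 and not in Huh7 cells, 6 in Huh7 cells and not in HepG2 cells, and 28 in neither. Whether the lines differed in any of these genes was not tested, since a gene can pass a threshold in 1 line and miss it by little in the other.

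**Figure D1:**
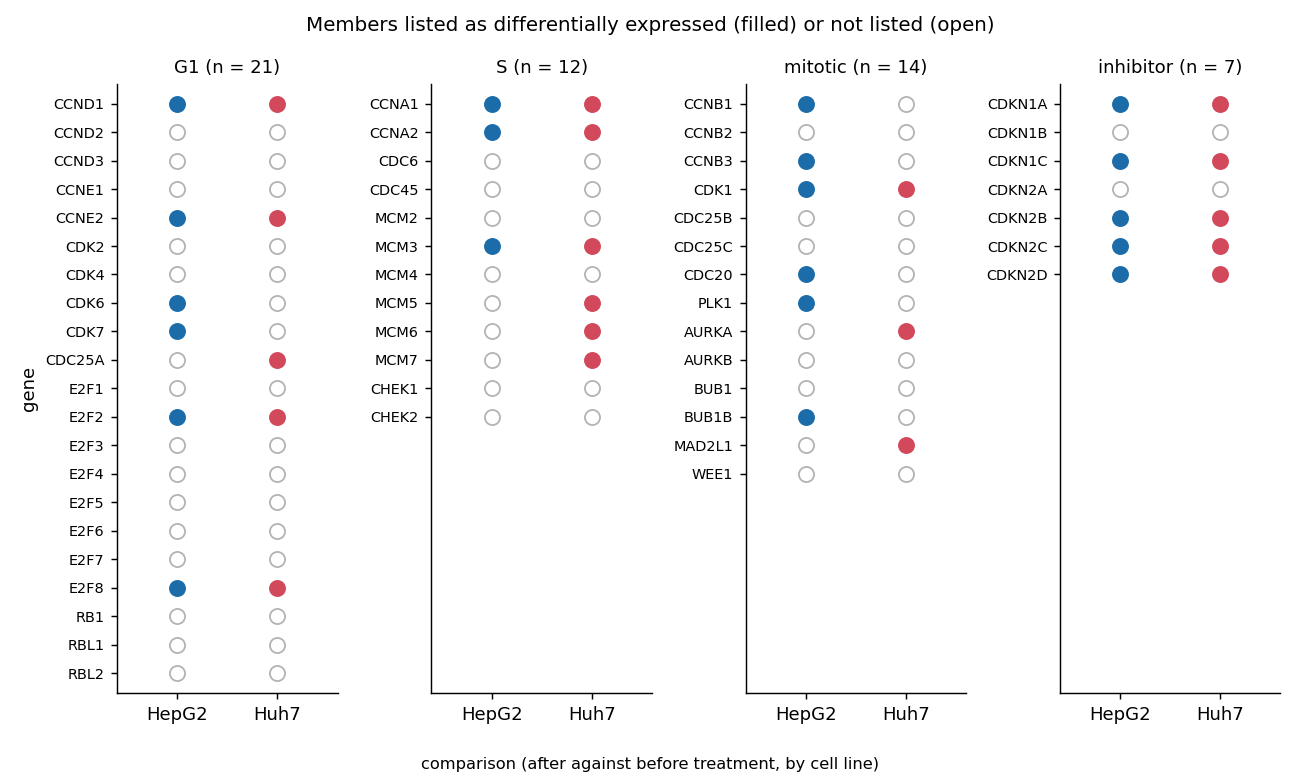
Listing of the 54 cell cycle genes in the comparison after against before treatment of each line, in 4 panels by role, with genes on the vertical axis. A filled point is a listed gene (blue HepG2, red Huh7) and an open point a gene that was not listed; 5 of the 7 inhibitors are filled in both columns, and 14 of the 21 G1 genes are open in both.

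Among the G1 cyclins, 1 of 3 D cyclins and 1 of 2 E cyclins were listed, and in both lines. They were CCND1 (ENSG00000110092), the cyclin that couples growth factor signals to CDK4 and CDK6, and CCNE2 (ENSG00000175305), a partner of CDK2. CCND2, CCND3 and CCNE1 were in neither list. CDK6 (ENSG00000105810) and CDK7 (ENSG00000134058), the kinase that activates other CDKs by phosphorylation, were listed in HepG2 and not in Huh7 cells. The main G1 kinases CDK4 and CDK2 were in neither list. CDC25A (ENSG00000164045), a phosphatase that removes inhibitory phosphates from CDKs, was listed in Huh7 cells and not in HepG2 cells.

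Of the 8 E2F factors, E2F2 (ENSG00000007968) and E2F8 (ENSG00000129173) were listed in both lines. E2F2 is an activator of replication genes, whereas E2F8 is an atypical member that binds DNA without a dimerization partner and represses them. E2F1, E2F3, E2F4, E2F5, E2F6 and E2F7 were in neither list. The same was seen for RB1, RBL1 and RBL2, the pocket proteins that hold E2F factors in check, none of which was listed. In all, 6 of 21 G1 genes (28.6%) were listed in HepG2 and 5 (23.8%) in Huh7 cells, with 4 in both. These shares lay only a little above the 21.6% and 19.7% of all background genes.

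The S phase genes differed in number between the lines. In HepG2 cells 3 of 12 (25%) were listed, and in Huh7 cells 6 of 12 (50%), which included those 3. The shares of all background genes were 21.6% and 19.7%, so the HepG2 share of S phase genes was near that of all genes. CCNA1 (ENSG00000133101) and CCNA2 (ENSG00000145386) were in both lists. CCNA2 is the A cyclin of dividing somatic cells, while CCNA1 is known mainly from the germ line. The rest of the listed S phase genes were subunits of the MCM helicase, the ring of 6 proteins that is loaded on replication origins in G1 and unwinds DNA in S phase. MCM3 (ENSG00000112118) was listed in both lines. MCM5 (ENSG00000100297), MCM6 (ENSG00000076003) and MCM7 (ENSG00000166508) were listed in Huh7 cells and not in HepG2 cells, so that 4 of the 6 subunits were listed in Huh7 cells and 1 in HepG2 cells. MCM2 and MCM4 were in neither list. CDC6, which loads the helicase, CDC45, which activates it, and the checkpoint kinases CHEK1 and CHEK2 were also in neither.

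Mitotic genes were listed in the opposite proportion, 6 of 14 (42.9%) in HepG2 and 3 of 14 (21.4%) in Huh7 cells. Of all background genes 21.6% and 19.7% were listed, so the Huh7 share was near that of all genes. With so few genes in a role, a few listings move the share greatly, and the lines were not tested against each other. The only mitotic gene in both lists was CDK1 (ENSG00000170312), the kinase that starts mitosis. CCNB1 (ENSG00000134057), its main cyclin, was listed in HepG2 cells together with CCNB3 (ENSG00000147082), a B-type cyclin known mainly from meiosis, and no B cyclin was listed in Huh7 cells. HepG2 cells also listed PLK1 (ENSG00000166851), a kinase of mitotic entry and spindle assembly, CDC20 (ENSG00000117399), the activator of the anaphase-promoting complex, and BUB1B (ENSG00000156970), a protein of the spindle checkpoint that restrains CDC20. Huh7 cells listed AURKA (ENSG00000087586), a kinase of the centrosome and spindle poles, and MAD2L1 (ENSG00000164109), which also holds CDC20 inactive until chromosomes are attached. Of the 4 genes of the spindle checkpoint and CDC20, 2 were thus listed in HepG2 and 1 in Huh7 cells, and none in both. CCNB2, CDC25B, CDC25C, AURKB, BUB1 and WEE1, the kinase that holds CDK1 inactive, were in neither list.

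The inhibitors were the role with the largest listed share in both lines, 5 of 7 (71.4%) in each, and they were the same 5 genes. Of all background genes 21.6% were listed in HepG2 and 19.7% in Huh7 cells. CDKN1A (ENSG00000124762), which encodes p21, a target of p53 that binds cyclin-CDK complexes, and CDKN1C (ENSG00000129757), which encodes p57, are of the CIP/KIP family. CDKN2B (ENSG00000147883), CDKN2C (ENSG00000123080) and CDKN2D (ENSG00000129355) are INK4 inhibitors, which bind CDK4 and CDK6. Thus 2 of 3 CIP/KIP and 3 of 4 INK4 genes were listed in each line. CDKN1B, which encodes p27, and CDKN2A, which encodes p16 and ARF, were in neither list. With 7 genes, a change of 1 gene moves the share greatly, and the direction of the 5 genes is not in the tables.

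**Figure D2:**
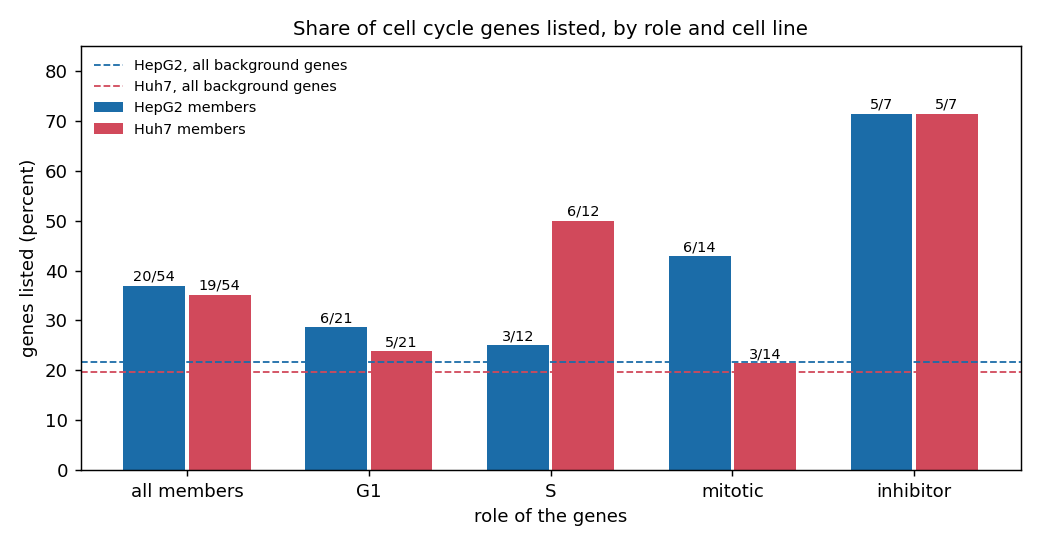
Percent of members listed, for all 54 genes and by role, with blue bars for HepG2 cells and red bars for Huh7 cells and the count above each bar; dashed lines are the shares of all 22148 background genes (21.6% and 19.7%). There are no error bars because each group had 1 library. The inhibitor bars are equal at 71.4%, the S phase bar is higher for Huh7 cells (50% against 25%), and the mitotic bar is higher for HepG2 cells (42.9% against 21.4%).

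By protein family rather than phase, all 10 cyclins together had 6 listed in HepG2 and 4 in Huh7 cells, and the 4 of Huh7 cells were among the 6 of HepG2 cells. They were CCND1, CCNE2, CCNA1 and CCNA2, so that among the cyclins the 2 lists differed in CCNB1 and CCNB3. Of the 5 CDKs, 3 were listed in HepG2 and 1, CDK1, in Huh7 cells. Of the 3 CDC25 phosphatases, 1 was listed in Huh7 cells and 0 in HepG2 cells. Of all background genes 21.6% were listed in HepG2 and 19.7% in Huh7 cells, and families of so few genes give no stable share.

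To set the listed genes of the helicase and of the mitotic group beside sequence, the bases before their transcription starts were read. E2F factors bind a GC-rich site, while genes that peak late in the cycle often carry a CHR element, bound by the MuvB complexes, together with CCAAT boxes, bound by NF-Y. The letters searched on both strands were TTTCCCGC, TTTGGCGC, TTTCGCGC and TTTGCCGC for the E2F site, TTTGAA and TTCGAA for the CHR element and CCAAT for the CCAAT box. The windows of 250 bases before the start come from RefSeq on GRCh38.p14, and 43 of the 54 members had a window that was used. Genes with several starts counted once if any of their windows matched. MCM3, MCM6 and MCM7 are shown as the helicase subunit of both lists and as subunits listed in Huh7 cells. CDC20, PLK1 and BUB1B are shown as mitotic genes listed in HepG2 cells, and they were chosen after their listing and matches were seen. Of the genes not shown, CCNB1 and CCNB3, the other mitotic genes listed in HepG2 and not in Huh7 cells, had no CHR match, and MCM2, a subunit in neither list, had no E2F match. The helicase subunits MCM4, in neither list, and MCM5, listed in Huh7 cells, had no window that was used. The windows are MCM3 at chr6:52284743-52284992 (minus strand), MCM6 at chr2:135876444-135876693 (minus), MCM7 at chr7:100101398-100101647 (minus, the most upstream of its 3 starts), CDC20 at chr1:43358731-43358980 (plus), PLK1 at chr16:23678639-23678888 (plus) and BUB1B at chr15:40160819-40161068 (plus). They are written 5′ to 3′ on the strand of the gene and end at the base before the start, with matches on either strand in capitals.
MCM3: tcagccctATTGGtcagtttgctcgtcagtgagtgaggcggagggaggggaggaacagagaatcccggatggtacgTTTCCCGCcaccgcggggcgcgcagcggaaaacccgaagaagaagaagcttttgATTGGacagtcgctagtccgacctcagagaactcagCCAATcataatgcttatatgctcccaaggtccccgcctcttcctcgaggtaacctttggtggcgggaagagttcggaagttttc
MCM6: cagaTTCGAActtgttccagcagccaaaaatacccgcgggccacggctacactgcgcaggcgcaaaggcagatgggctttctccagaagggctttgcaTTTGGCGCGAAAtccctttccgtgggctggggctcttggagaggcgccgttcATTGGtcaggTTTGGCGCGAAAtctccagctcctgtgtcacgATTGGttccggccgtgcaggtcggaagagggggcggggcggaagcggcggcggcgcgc
MCM7: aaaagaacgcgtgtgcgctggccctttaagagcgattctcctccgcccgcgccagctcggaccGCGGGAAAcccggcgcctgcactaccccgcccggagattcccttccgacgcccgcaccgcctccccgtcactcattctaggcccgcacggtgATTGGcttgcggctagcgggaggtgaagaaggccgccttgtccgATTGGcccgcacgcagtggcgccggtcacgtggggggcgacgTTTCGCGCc
CDC20: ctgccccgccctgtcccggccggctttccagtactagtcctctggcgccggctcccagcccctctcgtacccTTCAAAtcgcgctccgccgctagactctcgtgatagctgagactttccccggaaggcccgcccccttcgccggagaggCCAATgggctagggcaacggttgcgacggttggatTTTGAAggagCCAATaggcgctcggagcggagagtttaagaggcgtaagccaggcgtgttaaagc
PLK1: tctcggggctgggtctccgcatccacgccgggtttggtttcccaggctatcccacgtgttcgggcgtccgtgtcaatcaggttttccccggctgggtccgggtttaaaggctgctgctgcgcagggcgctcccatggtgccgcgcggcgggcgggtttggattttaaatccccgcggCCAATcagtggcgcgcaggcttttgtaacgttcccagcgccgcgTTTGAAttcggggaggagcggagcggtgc
BUB1B: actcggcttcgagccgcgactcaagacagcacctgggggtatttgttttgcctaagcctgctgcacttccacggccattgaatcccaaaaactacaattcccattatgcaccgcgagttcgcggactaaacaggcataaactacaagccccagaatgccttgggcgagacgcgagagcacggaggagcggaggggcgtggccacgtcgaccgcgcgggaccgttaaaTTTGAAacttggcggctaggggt

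The 3 helicase windows held an E2F site, with 1 place in MCM3 and 2 places each in MCM6 and MCM7. In MCM6 each place, TTTGGCGCGAAA, matched on both strands with overlapping letters. The nearest site of MCM7 began 9 bases before the start and that of MCM3 174 bases before it. All 3 also held CCAAT boxes, 3 in MCM3 and 2 in each of the other two windows, and MCM6 had a CHR match 246 bases before the start. The 3 mitotic windows held no E2F site and at least 1 CHR element. It began 65 bases before the start in CDC20, whose second match lay 178 bases before it, 29 bases in PLK1 and 23 bases in BUB1B. CDC20 had 2 CCAAT boxes, PLK1 had 1 and BUB1B had 0.

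Over the members, E2F sites were found before 9 of 43 genes (20.9%), against 928 of 27305 genes of the RefSeq table (3.4%). CCAAT boxes were found before 27 of 43 (62.8%), against 10102 of 27305 (37%). CHR elements were found before 9 of 43 (20.9%), against 4705 of 27305 (17.2%). By role, CHR letters stood before 7 of 12 mitotic genes, 1 of 15 G1 genes, 1 of 10 S phase genes and 0 of 6 inhibitors. E2F letters stood before 5 of 15 G1 genes, 3 of 10 S phase genes, 1 of 12 mitotic genes and 0 of 6 inhibitors.

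By listing, the matches were spread over listed and unlisted genes. Among genes with a window, E2F sites stood before 3 of the 9 of both lists (E2F2, MCM3 and CDK1). They stood before 0 of the 7 listed in HepG2 and not in Huh7 cells, and before 3 of the 23 in neither list (E2F1, E2F3 and RBL1). Of the genes listed in Huh7 cells and not in HepG2 cells, 4 of 6 had a window. E2F sites stood before 3 of these 4 (CDC25A, MCM6 and MCM7), and MCM5 and AURKA could not be read. CHR elements stood before CDK1 in both lists, before CDC20, PLK1 and BUB1B listed in HepG2 cells, before MCM6 listed in Huh7 cells, and before 4 genes in neither list (E2F3, CCNB2, CDC25B and CDC25C). The mitotic genes CCNB2, CDC25B and CDC25C therefore held a CHR match and were not listed in either line, and the CDC25B match was TTCGAA, which reads the same on both strands. A match is a description of these letters and not a binding site or a cause, and the counts were not tested between the lines.

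**Figure D3:**
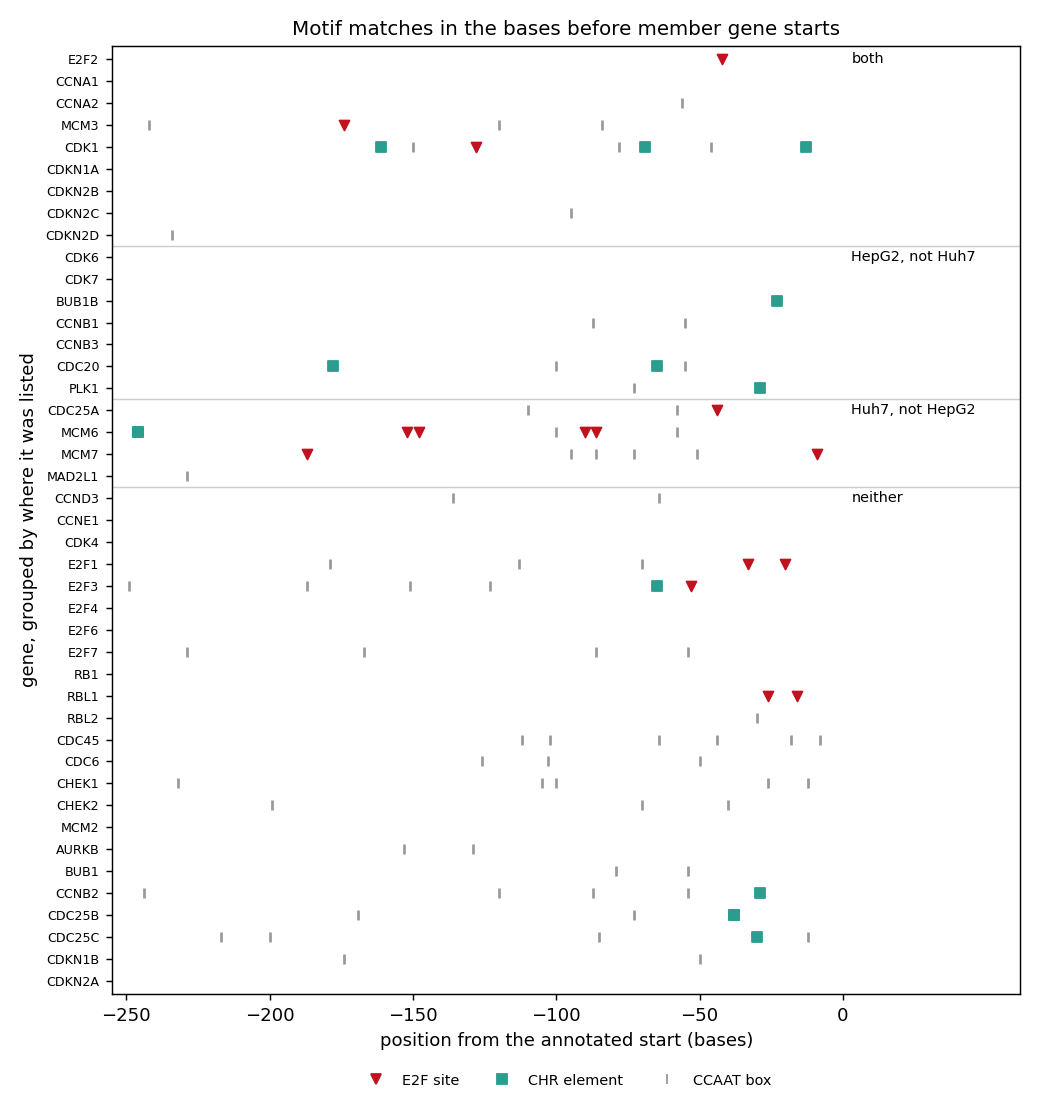
Position of motif matches in the 250 bases before the annotated start (horizontal axis, in bases, the start at 0) for the 43 members with a window, grouped by listing; red triangles are E2F sites, green squares CHR elements and grey ticks CCAAT boxes, over all starts of a gene. E2F triangles appear in 3 of the 4 rows of genes listed in Huh7 cells and not HepG2 cells and in none of the 7 rows of the reverse group, and CHR squares appear in 4 rows of genes in neither list.

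The KEGG pathway Cell cycle (hsa04110) holds 124 background genes. In HepG2 cells 30 of them (24.2%) were listed, and in Huh7 cells 26 (21%), with 16 in both. Members made up 18 of the 30 and 16 of the 26. CDK1 and E2F8 stood under GO terms in both lines but under no KEGG pathway, so every pathway count here leaves both out. AURKA stood under Oocyte meiosis and not under Cell cycle. Ordered by listed share among pathways with at least 10 background genes, Cell cycle was at place 163 of 272 in HepG2 and 193 of 274 in Huh7 cells. Its share was below the median pathway share of 26.1% in each line. The members chosen here thus had a larger listed share than the pathway that holds most of the listed ones. They were chosen with earlier results of these data known, and the part of that choice in this contrast was not tested.

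The other listed genes of the pathway were 12 in HepG2 and 10 in Huh7 cells. Common to both were CDC7, a kinase that fires origins, SKP2, the ubiquitin ligase subunit that marks p27 for degradation, GADD45A, a stress gene, SMC1B, a meiotic cohesin, and TGFB2, a growth-restraining ligand. HepG2 cells added ANAPC1 and ANAPC7 of the anaphase-promoting complex, GADD45B, MDM2, the ligase of p53, MYC, CDC14C and an identifier without a symbol, ENSG00000272772. Huh7 cells added ANAPC4, GADD45G, PCNA, the sliding clamp of DNA polymerases, WEE2 and YWHAB. In the table's pathway link the entries CDC14B and SKP1 stand in place of CDC14C and ENSG00000272772, so these 2 identifiers are uncertain.

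A list of 73 other cell cycle genes, which leaves out the members, had 10 listed in HepG2 (13.7%) and 8 in Huh7 cells (11%), both below the shares of all genes. All of these listed genes are among those of the Cell cycle pathway named above, so the list is no separate evidence. Of 16 further mitosis genes 1 was listed in each line, and of 17 ubiquitin ligase genes 3 and 2. A list of 30 proliferation genes had 13 listed in HepG2 (43.3%) and 11 in Huh7 cells (36.7%), and 10 were the same. Among them were PRIM1, GINS1, GINS2 and UHRF1 of DNA synthesis and its upkeep, and CENPE, KIF11, KIF20A, NUF2 and HMMR of the spindle. MKI67, which encodes the Ki-67 antigen, TOP2A and TPX2 were listed in HepG2 and not in Huh7 cells. RRM2, a subunit of ribonucleotide reductase, was listed in Huh7 cells and not in HepG2 cells. In this list 8 of 16 mitotic genes were listed in HepG2 and 5 of 16 in Huh7 cells, and the replication genes had 5 of 14 against 6 of 14. The list was chosen with earlier results of these data known, so it is no separate evidence on the mitotic members. The 16 further mitosis genes above had 1 listed in each line.

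In the GO table, the term cell cycle had 424 of 1881 genes listed in HepG2 (22.5%) and 355 (18.9%) in Huh7 cells. These shares were close to the 21.6% and 19.7% of all genes, and all 20 and 19 listed members were under the term. Mitotic cell cycle had 21.3% and 17.6% listed, and regulation of cell cycle had 22.4% and 18.5%. G1/S transition of mitotic cell cycle had 62 of 280 genes (22.1%) and 51 (18.2%), of which 12 and 15 were members. G2/M transition had 18.9% and 16.7%. Cell cycle checkpoint had 19.1% and 19.5%, mitotic cell cycle checkpoint 23% and 21.2%, and mitotic G1 DNA damage checkpoint 23.6% and 16.7%. These terms lay near the background shares in both lines.

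Terms of CDK activity and arrest had larger shares. CDK inhibitor activity had 6 of 13 genes listed (46.2%) in each line, namely the 5 inhibitors above with HEXIM1 in HepG2 and KAT2B in Huh7 cells. CDK regulator activity had 16 of 45 (35.6%) and 14 of 45 (31.1%), which included the cyclins CCNF and CCNG2 in both lines. Members already counted above made up 11 of the 16 and 9 of the 14. The CDK holoenzyme complex had 15 of 44 (34.1%) and 11 of 44 (25%), of which 10 and 7 were members. The shares of these CDK terms thus rest largely on the same listings and are not a separate result. Cell cycle arrest had 73 of 257 (28.4%) and 64 of 257 (24.9%), of which 11 and 9 were members. Positive regulation of cell cycle had 28.3% and 30%, with 7 members in each line.

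Some terms of DNA replication had larger shares in Huh7 cells. The MCM complex had 3 of 12 genes listed in HepG2 (MCM3, MCM8 and MMS22L) and 6 of 12 in Huh7 cells (MCM3, MCM5, MCM6, MCM7, MCMBP and MMS22L). DNA replication initiation had 5 of 34 (14.7%) and 9 of 34 (26.5%). Shared by both lines were CCNE2, MCM3, CDC7, MCM10 and POLA2, while NBN and 3 MCM subunits were added in Huh7 cells. The broad term DNA replication had 20.3% and 18% listed, so the order held for the initiation genes and not for the term as a whole. In the KEGG pathway DNA replication, 7 of 36 genes (19.4%) were listed in HepG2 and 12 of 36 (33.3%) in Huh7 cells. POLA2, POLE2, PRIM1, RFC2 and RFC3 were common to both, and PCNA and DNA2 were listed in Huh7 cells with the MCM subunits. Listed genes outside the members were 2 in each line for the MCM complex, and 3 and 4 for replication initiation. For the KEGG pathway they were 6 in HepG2 and 8 in Huh7 cells. The larger shares in Huh7 cells thus rest largely on MCM5, MCM6 and MCM7, already counted above, and are not a separate result.

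Of the terms of mitosis, several had larger shares in HepG2 cells. Mitosis had 73 of 290 genes (25.2%) against 54 (18.6%) in Huh7 cells, chromosome segregation 23.2% against 17.6%, and cell division 24.6% against 19.1%. The spindle assembly checkpoint had 9 of 35 genes (25.7%) against 7 (20%). Without the members it had 5 listed in HepG2 and 6 in Huh7 cells, so that gap rests on members already counted above. DUSP1, GEN1, SPDL1, TEX14 and USP44 were common to both lines, with BUB1B, CCNB1, CDC20 and PLK1 in HepG2 and MAD2L1 and XRCC3 in Huh7 cells. The KEGG pathway Oocyte meiosis, which holds CCNB1, CDC20, PLK1, AURKA and MAD2L1, went the other way, with 18 of 110 genes (16.4%) in HepG2 and 23 of 110 (20.9%) in Huh7 cells. The HepG2 list was also longer over all genes (21.6% against 19.7%), and its part in these gaps was not tested.

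**Figure D4:**
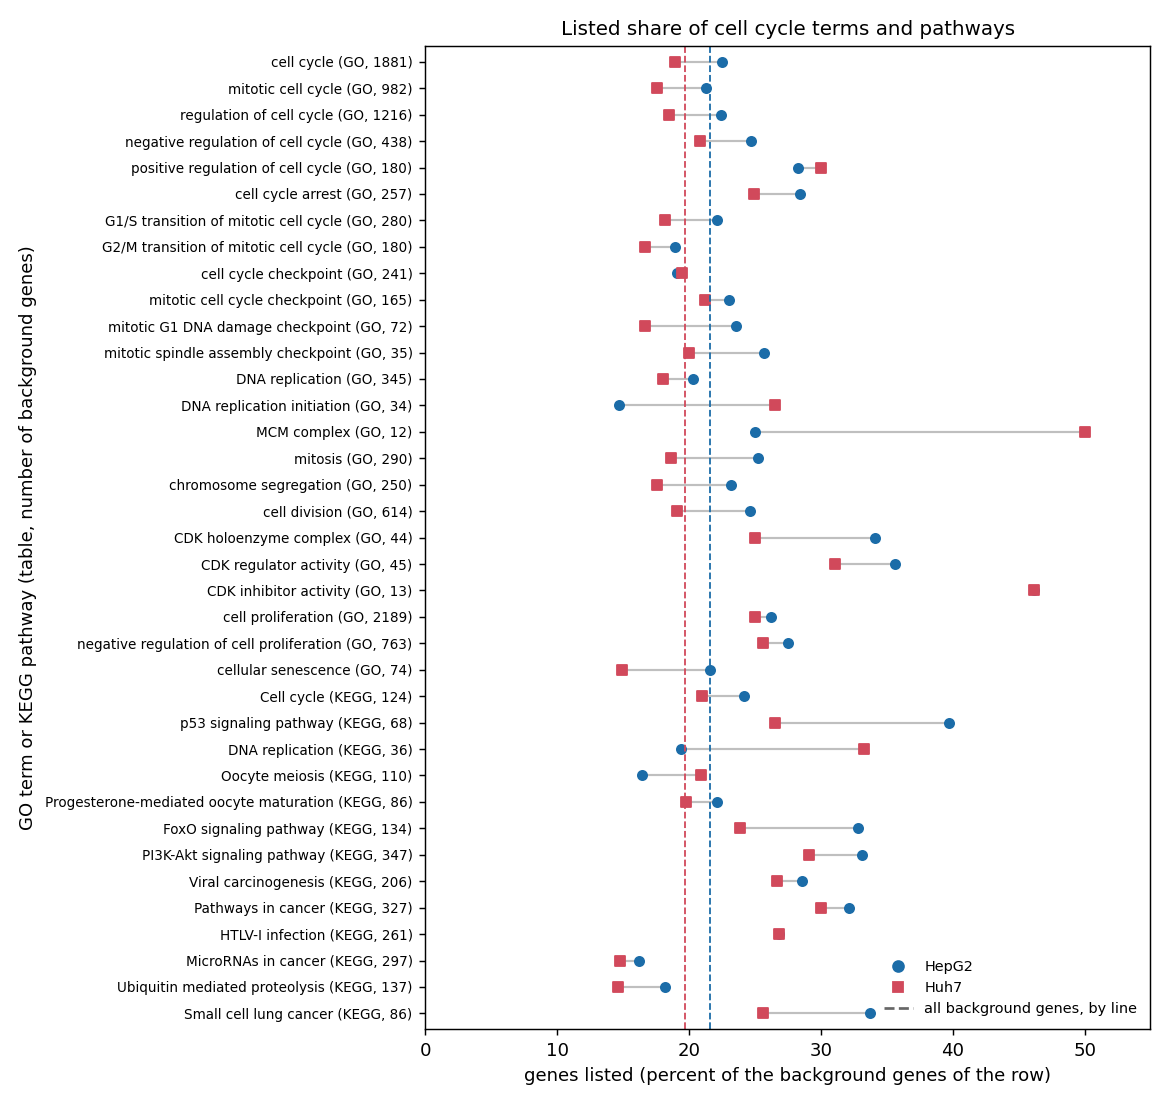
Percent of background genes listed for GO terms and KEGG pathways of the cell cycle and its surroundings, with the number of background genes in brackets; blue points are HepG2 cells, red squares Huh7 cells and dashed lines the shares of all genes (21.6% and 19.7%). The square lies to the right of the point for the MCM complex (50% against 25%), DNA replication initiation and the KEGG pathway DNA replication, and far to its left for the p53 signaling pathway (26.5% against 39.7%); point and square coincide at CDK inhibitor activity and HTLV-I infection.

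Pathways that share members with the module were also read. The p53 signaling pathway had 27 of 68 genes listed in HepG2 (39.7%) and 18 of 68 (26.5%) in Huh7 cells. Its members in both lines were CCND1, CCNE2 and CDKN1A, and HepG2 cells added CCNB1, CCNB3 and CDK6. FoxO signaling had 44 of 134 (32.8%) and 32 of 134 (23.9%), with CCND1, CDKN1A, CDKN2B and CDKN2D in both lines. PI3K-Akt signaling had 33.1% and 29.1%, and Pathways in cancer 32.1% and 30%. The median share over KEGG pathways with at least 10 background genes was 26.1% in each line. In Huh7 cells the p53 pathway was thus near that median and FoxO signaling below it. Ubiquitin mediated proteolysis had 18.2% and 14.6%, below the shares of all genes, and CDC20 was its single member listed. Cellular senescence, a GO term, had 16 of 74 genes (21.6%) in HepG2 and 11 (14.9%) in Huh7 cells.

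Members differed in how widely they were annotated. The 26 listed members stood under 101 GO terms (MCM5) to 517 (CDK1), with 476 for CCNB1, 407 for PLK1 and 393 for AURKA. CCND1 stood under 32 KEGG pathways and CDKN1A under 21, in each line, while CDK6 stood under 14 and E2F2 under 13. A listed CCND1 therefore entered many pathway counts at once, whereas CDKN1C entered 1.

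Longer transcripts collect more reads, and transcript length was set beside the listings. The median longest transcript was 2904 bases for the 13 members of both lists and 3513 bases for the 28 of neither (range 1422 to 5191 and 1254 to 6480 bases). It was 3725 bases for the 7 genes listed in HepG2 and not in Huh7 cells, and 3759.5 bases for the 6 of the reverse kind. The part of length in the listings was not tested. Reads of overlapping genes are a further limit. In the GENCODE annotation, 11 of the 26 listed members overlap a gene on the opposite strand, among them CDKN2B with CDKN2B-AS1, CDKN1A with DINOL, CCND1 with LTO1, CCNA2 with EXOSC9, PLK1 with ERN2 and MCM7 with AP4M1. The library kit kept strand, but whether the counting used it is not given in the sources used here. A further gene on the same strand overlaps 3 listed members, namely BUB1B with BUB1B-PAK6, MCM7 with 3 microRNA genes (MIR106B, MIR25 and MIR93) and CDK6 with RNU6-10P, so that these listings are uncertain to that extent. Unlisted members also overlap other genes, such as CDK4 and RB1 on both strands, so overlap is not particular to the listed members.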

How the data were processed

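Directional libraries were made from total RNA after removal of ribosomal RNA, 4 libraries in all, 1 in each of 4 groups taken from the sample labels. The authors computed FPKM values, took mRNAs with an adjusted p-value under 0.05 as differentially expressed and tested GO terms and KEGG pathways. The submitters' processing notes name Bowtie2 2.2.8, HISAT2, StringTie 1.3.1 and Cuffdiff 2.1.1, with no roles. The paper's methods give Cuffdiff for the FPKM values and the differential test, whereas its results name edgeR. Which program made the calls is therefore uncertain. The genome build and annotation of the counting are not given in the sources used here.

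The authors deposited, for each of 2 comparisons, a GO table and a KEGG table with numbers of listed and background genes, gene identifiers, and enrichment p-values and corrected p-values. The numbers are of genes, not of reads. The enrichment p-values are the authors' own comparisons and were not used. No column of per-sample values was left out (0 such columns).

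The list of each comparison was rebuilt as all identifiers under any GO term (14390 terms for HepG2 cells, 13760 for Huh7 cells), and members were matched by identifier. The pathway links carry a single colour, so no direction could be read. Symbols, transcript lengths and overlaps came from a table of gene names, where 4755 (HepG2) and 4346 (Huh7) listed identifiers had a name, and from GENCODE 29. Promoter windows came from RefSeq. Counts were made in Python 3.11.15, tested on simulated data, and drawn with matplotlib 3.10.9.

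No test was run, because the tables hold no values per sample. The members, roles and further lists were chosen with earlier results of these data known. The genes named were the 54 members, the listed genes of the KEGG Cell cycle row and of the 2 further lists (1 gene of these lists is not reported here by name), with terms and pathways from a list set with them, and sequences were meant for members of both lists and their closest paralogs. CDC20, PLK1 and BUB1B were added to the sequences after their listing and motif matches were seen. Other genes named under narrower terms were added after their listing was seen. Alternatives were the KEGG table in place of GO, other member sets and other backgrounds.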

Additional observations from a re-analysis of the deposited data

How the results depend on the processing

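The counts of listed members moved little with the table used. From the KEGG table alone they were 18 in HepG2, 17 in Huh7 cells and 11 in both, and from the GO and KEGG tables together, or the GO term cell cycle alone, they were 20, 19 and 13. Without members under the median transcript length of 3390 bases, 27 genes were left, with 8 listed in HepG2 (29.6%), 8 in Huh7 cells (29.6%) and 4 in both (14.8%), so the shares fell as well as the numbers, and 4 of the 8 of each line were shared. The cause was not tested. Among the 33 cyclins, CDKs, CDK inhibitors, E2F and RB family genes, 12 were listed in Huh7 cells (36.4%) and 16 in HepG2 cells (48.5%). The share of all genes listed was 23.9% in HepG2 and 21.9% in Huh7 cells over protein-coding genes, 22.5% and 18.9% over the GO term cell cycle, and 26.3% and 25.8% over sums of KEGG pathways, each below the members' 37% and 35.2%. The KEGG Cell cycle share without the listed members was 11.3% in HepG2 and 9.26% in Huh7 cells, which had to be lower, since listed members were taken out and unlisted ones stayed. Counting only identifiers named in the pathway link, a setting chosen after seeing the data, gave 22.6% and 21%. Counts by role from the KEGG table, also chosen after seeing the data, moved by at most 1 gene. No paired analysis was possible because each group had 1 library, and for the same reason no replicate could be left out. The tables do not hold the depth of each library, so the listings could not be set beside it.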
